A study of Mus musculus with 6 samples.

Results

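The unfolded protein response and the integrated stress response were followed through 10 of their genes in whole brain of mice exposed to nanoplastics. Rows were taken where the gene symbol equalled Atf3, Atf4, Ddit3, Xbp1, Trib3, Asns, Ppp1r15a, Ern1, Eif2ak3 or Herpud1, and all 10 were found among the 27378 genes listed in each library. The RNA came from whole brains of wild-type (WT) males of the inbred strain C57BL/6J. In the PS group, polystyrene nanoplastics, small plastic particles found as a pollutant, were given through the nose for 28 days. The control group was given sterile distilled water in that way, also over 28 days. Each group had 3 libraries, and the labels give neither the age of the mice nor the dose or the size of the particles.

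Proteins that enter the endoplasmic reticulum (ER) are folded there with the help of chaperones. When unfolded proteins build up, sensors in the ER membrane start the unfolded protein response. The kinase and nuclease IRE1, encoded by Ern1, splices the mRNA of the transcription factor XBP1, and the kinase PERK, encoded by Eif2ak3, phosphorylates the translation factor eIF2. Other kinases phosphorylate eIF2 upon amino acid shortage, viral RNA or heme deficiency, and together these form the integrated stress response, which lowers general translation and raises translation of ATF4. ATF4 and its partners then induce genes of amino acid supply, such as Asns, and feedback genes, such as Ppp1r15a. In brain, this response is studied in memory formation and in neurodegeneration. Splicing of Xbp1, phosphorylation of the sensors and translation of Atf4 are not seen in a gene's total RNA level, which is what was measured here.

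Promoter sequences from RefSeq (build GRCm38.p6, a build other than the GRCm39 named for the deposited values) are shown because they hold the elements through which the stress transcription factors are known to act. All 10 genes were matched in that table, which holds 250 bases before and 50 after each start. On both strands, 4 motifs were searched. They were the C/EBP-ATF response element TGATGNAAN bound by ATF4, the ER stress response element bound by ATF6 and XBP1 (CCAAT, then 9 bases of any kind, then CCACG), its second form (ATTGG, then 1 base of any kind, then CCACG), and the cAMP response element TGACGTCA bound by ATF and CREB proteins. The motifs did not overlap each other in the promoters printed here. Capitals mark the matches, N stands for any base, and each run is the 250 bases before the start, 5′ to 3′, on the strand of the gene, at these places: Asns chr6:7693210-7693459 (-), Herpud1 chr8:94386179-94386428 (+), Atf3 chr1:191183334-191183583 (-), Ppp1r15a chr7:45526269-45526518 (-) and, from outside the 10, the ER chaperone gene Hspa5 chr2:34771840-34772089 (+).
Asns: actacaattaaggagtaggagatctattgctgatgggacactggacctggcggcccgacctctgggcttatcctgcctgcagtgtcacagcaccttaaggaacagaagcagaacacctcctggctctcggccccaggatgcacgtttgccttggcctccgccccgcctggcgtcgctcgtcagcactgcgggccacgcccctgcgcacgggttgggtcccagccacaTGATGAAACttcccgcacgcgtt
Herpud1: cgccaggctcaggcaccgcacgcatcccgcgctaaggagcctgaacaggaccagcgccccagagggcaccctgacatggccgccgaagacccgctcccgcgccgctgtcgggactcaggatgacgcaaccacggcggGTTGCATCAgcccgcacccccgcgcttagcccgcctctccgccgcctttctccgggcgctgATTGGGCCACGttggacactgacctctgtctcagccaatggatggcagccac
Atf3: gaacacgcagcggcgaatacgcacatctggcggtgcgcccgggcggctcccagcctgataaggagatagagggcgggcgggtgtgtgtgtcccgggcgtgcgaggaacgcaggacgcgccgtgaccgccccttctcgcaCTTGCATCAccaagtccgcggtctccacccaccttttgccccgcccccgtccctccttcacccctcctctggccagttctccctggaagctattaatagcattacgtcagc
Ppp1r15a: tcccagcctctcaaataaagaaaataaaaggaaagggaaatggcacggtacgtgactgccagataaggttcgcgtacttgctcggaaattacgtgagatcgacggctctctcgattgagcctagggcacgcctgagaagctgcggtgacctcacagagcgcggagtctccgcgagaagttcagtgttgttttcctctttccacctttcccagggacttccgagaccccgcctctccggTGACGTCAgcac
Hspa5: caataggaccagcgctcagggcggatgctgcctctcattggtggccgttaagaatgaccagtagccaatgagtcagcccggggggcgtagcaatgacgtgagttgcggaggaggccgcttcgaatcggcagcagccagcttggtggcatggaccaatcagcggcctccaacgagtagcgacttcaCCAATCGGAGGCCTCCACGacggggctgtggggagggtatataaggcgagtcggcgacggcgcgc

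With the first transcribed base as position 0, the C/EBP-ATF element began at -23 in Asns, at -113 in Herpud1 and at -111 in Atf3. A further match began at 13 in Trib3, inside the transcript. The motif was thus found for 4 of the 10 genes, against 3.95% of all 32851 promoters. Herpud1 held the second ER stress element as well, at -52, a sequence present in 0.0365% of promoters. The cAMP element, at -12 in Ppp1r15a, was present in 1.79% of promoters. The first form of the ER stress element was in none of the 10 promoters but began at -65 in Hspa5, and 0.119% of all promoters held it. No match of these 4 motifs was found within the windows of Atf4, Ddit3, Xbp1, Ern1 and Eif2ak3, which says only that those letters are not there. A match is a description of the sequence and was not tied to binding.

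The reads behind the values numbered 39239183 to 40335590 per library. FPKM, the unit deposited, scales fragments by the length of the gene and by the size of the library, so levels of different genes can be set side by side. The first principal component of all tested genes, with 42.3% of the variance, set control replicate 2 (17.5) apart from the remaining libraries (-8.21 to 2.93). Defining markers of neurons, astrocytes, oligodendrocytes and microglia were present in every library, with none at 0. The summed level of 7 neuron markers was 1870 to 1922 FPKM in control and 1805 to 1979 in PS. All 7 oligodendrocyte markers had positive log2 fold changes, with a median of 0.24, larger in size than the -0.07 of the stress genes below. Control replicate 2 was the lowest of the 6 libraries for each of these 7 markers, against 30% of all tested genes. None of them was called, and the nearest was Sox10, at 12.1, 11.1 and 11.6 FPKM in control and 15.1, 15.1 and 14.7 in PS (log2 fold change 0.34, limma unadjusted p = 0.000251, adjusted p = 0.0828). The part of these cells in the results was not tested. The labels name no extraction, sequencing or other batch, and they number the samples but do not tie them to separate mice, so the spread behind every p-value is that of these samples and may be technical. In whole tissue, fewer cells of a type and less RNA per cell cannot be told apart.

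None of the 8 genes that entered the test between PS and control brains passed it. Atf4, Ppp1r15a and Herpud1, at 0.901, 0.908 and 0.927 of their control means, were the 3 whose groups did not overlap. Over all tested genes, 11.3% did not overlap, 6.33% lower in PS. Of the 10, 8 had a mean of at least 1 FPKM and entered the test, which was limma on log2(FPKM + 1) over 12229 genes. Atf3 and Trib3 lay under that level and had an exact permutation test, whose smallest possible p of 0.1 could not pass 0.05. At an adjusted p under 0.05, 0 of the 8 were called, where 0.164% of all tested genes were. At an unadjusted p under 0.05 there was 1, Atf4, lower in PS, against 5.94% of all tested genes, and limma-voom on whole reads recovered from the FPKM values also called 0 and had the same 1 gene at that level. Among the 8, 6 were negative and 2 positive, where 5948 of all tested genes were negative and 6281 positive. The split was 7 and 1 after quantile normalization, with sample weights or without PS replicate 2, and 5 and 3 without PS replicate 1. The log2 fold changes ran from -0.15 to 0.10 and their median was -0.07, where the median of all tested genes was 0.003. The differences were small in size, though their median absolute log2 fold change was 0.094, against 0.057 over all tested genes. The 95% intervals of the 8 genes ran from a fold of 0.819 at the lowest to 1.19 at the highest, on the FPKM + 1 scale. An interval for any of the 8 thus left out a 1.5-fold difference either way, as it did for 11942 of the 12229 tested genes. The lowest bound, that of Ern1, was 0.728 with a pseudocount of 0.1 and 0.739 with limma-voom, since adding 1 FPKM shrinks the fold of low genes, and the 8 intervals left out 1.5-fold in these fits too.

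**Figure D1:**
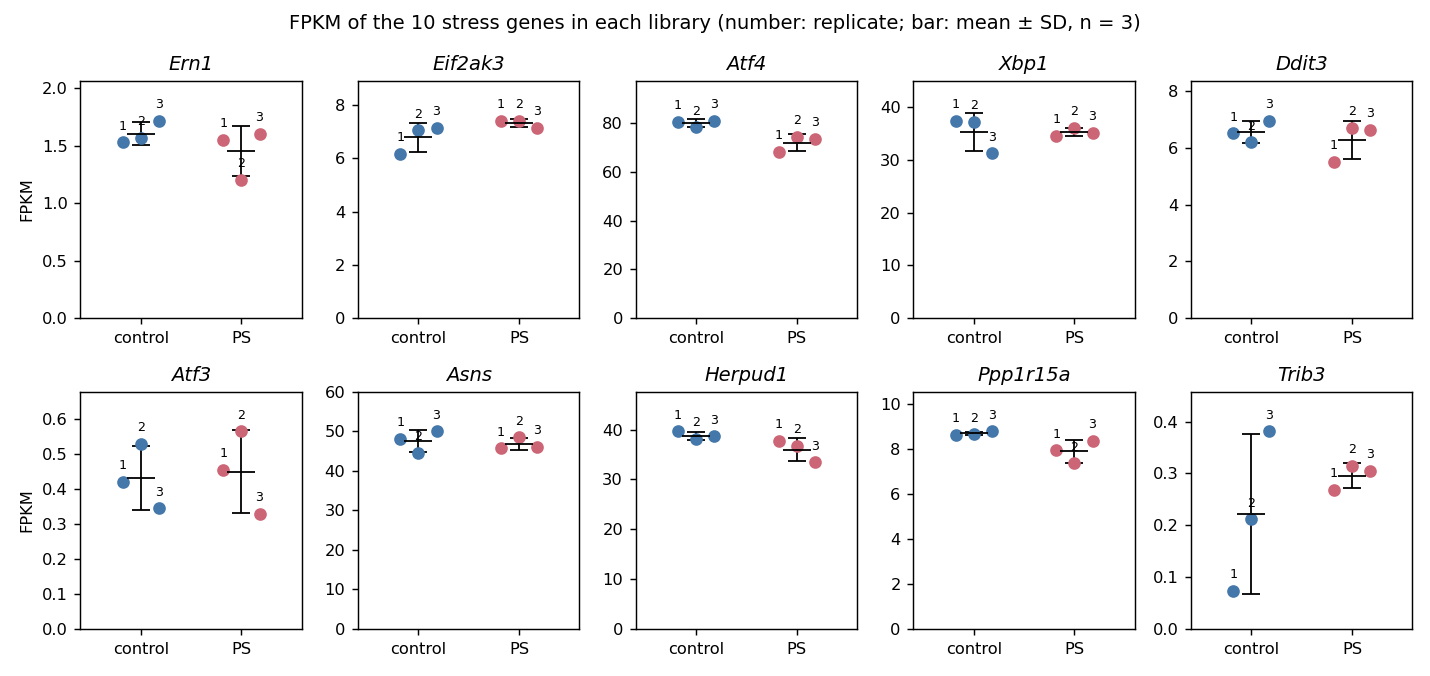
FPKM (y axis, from 0, a scale of its own in each panel) of each of the 10 genes in the 3 control (blue) and 3 PS (red) libraries, with the replicate number above each point and black bars for mean ± SD (n = 3). Atf4, Ppp1r15a and Herpud1 have all PS points below all control points, as do 6.33% of all tested genes, and the groups overlap in the other 7 genes.

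The members spanned a wide range of levels. Atf4 was the highest, between 68.3 and 81.1 FPKM over the 6 libraries, followed by Asns between 44.5 and 50.1. Herpud1 (33.5 to 39.7) and Xbp1 (31.2 to 37.4) came next with overlapping ranges. Ppp1r15a (7.37 to 8.80), Eif2ak3 (6.16 to 7.41) and Ddit3 (5.52 to 6.97) formed a middle group in which neighbours overlapped. Ern1 lay between 1.21 and 1.72 FPKM, and Atf3 (0.329 to 0.564) and Trib3 (0.0737 to 0.381) lay under 1 in every library. By mean level, Atf4 stood above 93.9% of the tested genes, Ppp1r15a above 50.1% and Ern1 above 7.03%.

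Of the sensors, Ern1 encodes IRE1, which signals through XBP1. Its control values, in the order of replicates 1 to 3 kept throughout, were 1.53, 1.57 and 1.72 FPKM, and its PS values were 1.55, 1.21 and 1.604. The groups overlapped, and PS replicate 2 was the lowest library. The log2 fold change was -0.09 (SE 0.087, limma adjusted p = 0.975), moving to -0.02 once PS replicate 2 was left out and to -0.06 once control replicate 3 was. Eif2ak3 encodes PERK, the ER kinase of eIF2. Its values were 6.16, 7.04 and 7.14 FPKM in control and 7.39, 7.41 and 7.14 in PS. All but 1 of the 6 values lay within 7.04 to 7.41, and control replicate 1 was the low one. The log2 fold change was 0.10 (SE 0.070, limma adjusted p = 0.946), the largest positive value among the 8, and it was 0.04 without control replicate 1. An exon of Eif2ak3 overlaps the predicted gene Gm43292 on the opposite strand, by up to 221 bases in the GRCm38 annotation, and the sources used here do not give whether counting used strand.

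Among the transcription factors, Atf4 carries the message whose translation rises when eIF2 is phosphorylated, and it had the lowest p of the 10 genes. In control it stood at 80.7, 78.3 and 81.1 FPKM. In PS it stood at 68.3, 74.5 and 73.5 FPKM. All 3 PS values lay below all 3 control values, with PS replicate 1 the lowest. The means were 80.0 ± 1.499 and 72.1 ± 3.32 FPKM (SD, n = 3 each), a log2 fold change of -0.15 (95% interval -0.28 to -0.02). The unadjusted limma p was 0.0273 and the adjusted p 0.752, so the difference did not pass. These values rest on 4727 to 5557 reads per library. The unadjusted p was above 0.05 when control replicate 1, control replicate 3, PS replicate 1 or PS replicate 3 was left out.

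Xbp1, the transcription factor activated by IRE1, was at 37.4, 37.2 and 31.2 FPKM in control and at 34.6, 36.0 and 35.1 in PS. The spread lay within the control group, where replicate 3 was the lowest of all 6 libraries. The log2 fold change was 0.003 (SE 0.076, limma adjusted p = 0.997), and its sign turned to -0.08 without control replicate 3, to -0.07 with sample weights and to -0.01 after quantile normalization or without PS replicate 2. Ddit3 encodes CHOP, a factor that promotes cell death under prolonged ER stress. Its values were 6.52, 6.20 and 6.97 FPKM in control and 5.52, 6.71 and 6.65 in PS, and the groups overlapped. The log2 fold change was -0.06 (SE 0.083, limma adjusted p = 0.98), and 0.02 without PS replicate 1. Its exons share up to 68 bases with the methionyl-tRNA synthetase gene Mars (listed as Mars1 in the deposited tables) on the opposite strand.

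Atf3, a factor induced by many stresses and by nerve injury, was near the floor of the data. It was at 0.421, 0.529 and 0.345 FPKM in control and 0.455, 0.564 and 0.329 in PS, from 26 to 45 reads per library. The groups covered nearly the same range, and the log2 difference of 0.02 had an exact permutation p of 0.8 (two-sided, where 3 against 3 cannot go below 0.1). Without control replicate 3 the difference was -0.03, and without PS replicate 2 it was -0.04.

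Of the effectors, Asns makes asparagine and is a textbook target of ATF4 through the element printed above. It was at 48.1, 44.5 and 50.1 FPKM in control and 45.8, 48.5 and 46.1 in PS. The PS values lay inside the control range, and the log2 fold change was -0.02 (95% interval -0.16 to 0.12, limma adjusted p = 0.994). Without control replicate 3 it was 0.01. Herpud1, a membrane protein that helps to remove misfolded proteins from the ER, was at 39.7, 38.1 and 38.7 FPKM in control and 37.8, 36.7 and 33.5 in PS. The PS values were all below the control values, by little except in PS replicate 3. The log2 fold change was -0.11 (SE 0.062, limma adjusted p = 0.899), and it was -0.06 without PS replicate 3.

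Ppp1r15a encodes GADD34, which brings a phosphatase to eIF2 and so ends the response. It was at 8.65, 8.66 and 8.80 FPKM in control and 7.96, 7.37 and 8.39 in PS. The control values were close together and all PS values lay below them. The log2 fold change was -0.13 (SE 0.065, limma adjusted p = 0.868), and it was -0.08 without PS replicate 2. Its exons share up to 12 bases with Tulp2 on the opposite strand. Trib3, a pseudokinase induced by ATF4 and CHOP that feeds back on them, was at 0.0737, 0.211 and 0.381 FPKM in control and 0.268, 0.314 and 0.305 in PS. Its control values rested on 6, 17 and 31 reads. The exact Poisson 95% interval of 6 reads, 2.20 to 13.1, did not reach that of 31 reads, 21.1 to 44.0, so the spread within the control group was larger than counting error. These intervals cover counting error only. The PS values lay inside the control range, and the log2 difference of 0.09 had an exact permutation p of 0.6 (two-sided, smallest possible 0.1).

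Non-overlap of the groups was seen for Atf4, Herpud1 and Ppp1r15a, 3 of the 8 tested genes and all lower in PS. Over all tested genes, 11.3% did not overlap, 6.33% lower and 4.93% higher in PS. Averaged over the 8 tested genes, the log2 level relative to each gene's mean was 0.025, 0.014 and 0.046 for control. For PS it was -0.045, -0.025 and -0.014. The PS libraries were thus all below the control libraries, by a small margin on the log2 scale. No p is given for this average, since the genes were chosen with results of these data known.

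**Figure D2:**
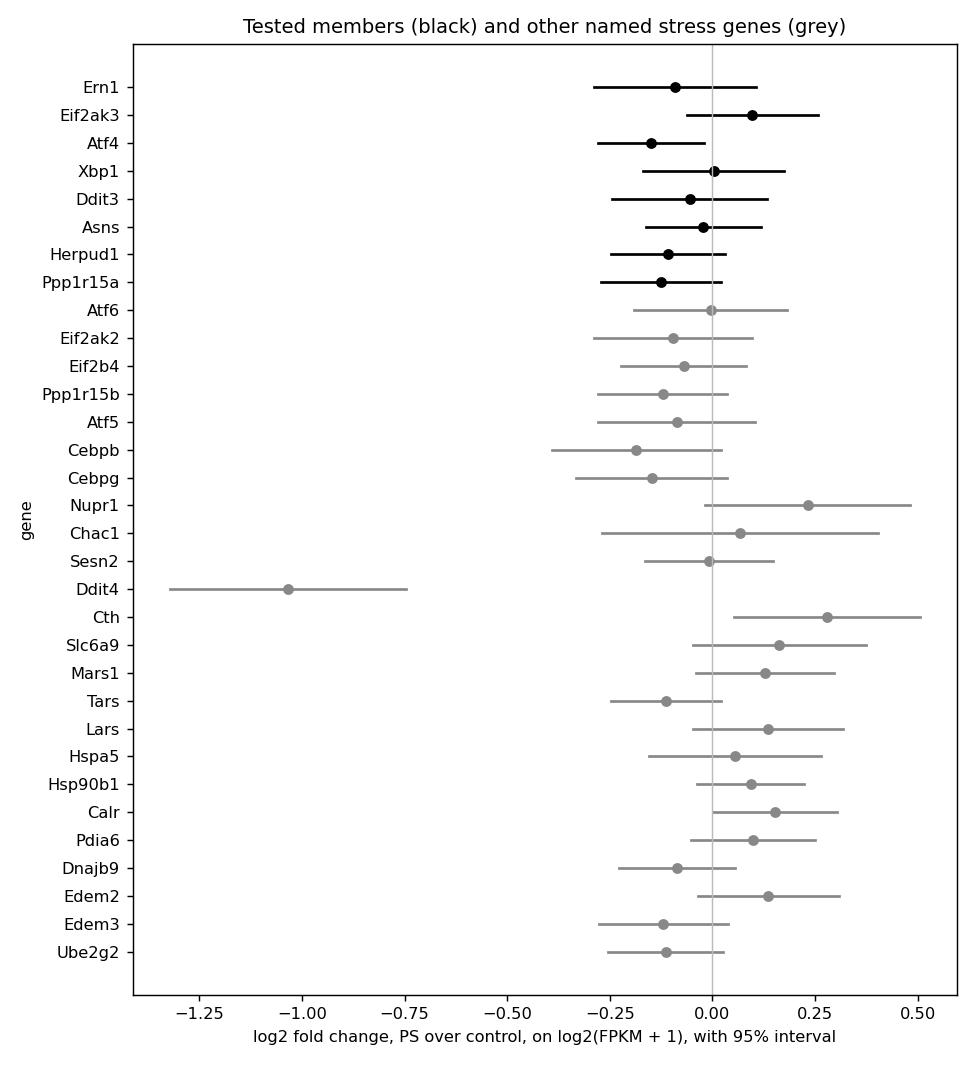
Log2 fold change of PS over control (x axis, on log2(FPKM + 1)) with its 95% interval for the 8 tested genes of the 10 (black) and for other named genes of the stress pathways (grey). The black intervals lie between -0.29 and 0.26, and of the grey ones that of Ddit4 lies apart, from -1.32 to -0.75.

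The neighbouring genes of both responses were read from 6 further lists, with 104 genes measured and 94 tested. Of these 94, 1 was called, Ddit4, lower in PS. The other 93 had log2 fold changes from -0.19 to 0.28 and none was called by limma, with 2 at an unadjusted p under 0.05 (Calr and Cth, both higher in PS), where 2.66% of all tested genes were higher and 3.29% lower at that level. Positive and negative values were nearly balanced among the 94, with 49 above and 45 below 0 and a median of 0.002. Their typical size, a median absolute log2 fold change of 0.055, was close to the 0.057 of all tested genes. For 93 of the 94 genes the 95% interval left out a 1.5-fold difference in either direction, as it did for 11942 of the 12229 tested genes. These intervals are on the FPKM + 1 scale, which shrinks the fold of low genes. Cth, at 0.28 on that scale, was at 0.41 with a pseudocount of 0.1 and at 0.43 with limma-voom. The intervals of the 94 genes in those fits are not given here.

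Ddit4 encodes REDD1, an inhibitor of mTORC1 that ATF4 can induce but that glucocorticoids and hypoxia induce as well. It was at 73.6, 63.1 and 60.4 FPKM in control and 26.6, 30.4 and 38.5 in PS. It fell by 1.03 on the log2 scale (SE 0.127, limma adjusted p = 0.0176), lower in 3 of 3 PS libraries than in any control. The call ended without control replicate 1 (adjusted p = 0.122), PS replicate 1 (0.0621) or PS replicate 2 (0.113), and with every gene above 0 tested (0.367), while the log2 fold change stayed between -1.18 and -0.92 over 17 alternatives. Other gene lists differed in level between the same libraries. Of 9 glucocorticoid-induced genes all 9 were negative (median log2 fold change -0.28) and 2 were called (Sgk1 and Errfi1). Their summed level was 508.3 to 604.4 FPKM in control and 464.7 to 481.0 in PS. Mt2, the largest part of that sum, overlapped, at 213.0 to 315.0 FPKM in control and 245.2 to 251.7 in PS. Of 9 tested immediate early genes all 9 were negative (median -0.78) and 2 were called (Fos and Dusp1). Their sums were 156.4 to 250.1 and 90.5 to 119.9. Over all tested genes 0.164% were called. All 5 red-cell genes were negative, with none called (median -1.15, sums of 127.4 to 196.4 and 56.7 to 99.5). So were 7 of 8 endothelial markers, with 1 called, Vwf (median -0.19, sums of 141.6 to 172.8 and 116.1 to 126.5). Most of the endothelial sum was Slc2a1, at 80.2 to 100.7 FPKM in control and 62.1 to 71.8 in PS. The endothelial markers were uneven, with Vwf at -0.74, Slc2a1 at -0.46, Cldn5 at -0.06, Cdh5 at -0.01 and Tek at 0.05. None of the tested genes of these lists was at 0 in any library. The 7 oligodendrocyte markers were positive, with sums of 1071 (control replicate 2) to 1540 and 1475 to 1664. The part of these lists in the Ddit4 result was not tested.

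The list of ATF4 and CHOP targets that holds Ddit4 had 23 tested genes, 11 positive and 12 negative, with a median of -0.01. Beside Ddit4, the lowest value was -0.19, in the mitochondrial folate enzyme gene Mthfd2, named after its value was seen. Chac1, which breaks down glutathione and is among the most responsive ATF4 targets, was at 3.63, 3.28 and 5.68 FPKM in control and 4.55, 4.42 and 4.05 in PS. The control values spread more widely than the PS values, and the log2 fold change of 0.07 (limma adjusted p = 0.992) turned to -0.06 without control replicate 2 and -0.003 without control replicate 1. Sesn2, another inhibitor of mTORC1 under ATF4, was at 5.14, 5.74 and 5.06 in control and 5.19, 5.44 and 5.18 in PS, a near equal level (log2 fold change -0.01, limma adjusted p = 0.996). Its sign turned to between 0.0004 and 0.04 after quantile normalization, with sample weights, and without control replicate 2, PS replicate 1 or PS replicate 3. Cth, an enzyme that makes cysteine, was at 1.86, 1.39 and 1.73 FPKM in control and 1.90, 2.32 and 2.47 in PS (log2 fold change 0.28, limma adjusted p = 0.717). Slc6a9, a glycine transporter, had a log2 fold change of 0.16 (limma adjusted p = 0.896), and 0.06 without control replicate 2.

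A pair of target genes that encode secreted hormones had few reads in both groups. Gdf15, a hormone released under cell stress, had 5, 1 and 6 reads in control and 0, 2 and 2 in PS. Fgf21, a further stress hormone, had 0, 1 and 0 reads in control and 0, 1 and 2 in PS. Both were named after their values were seen, lie under the filter and were not tested.

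**Figure D3:**
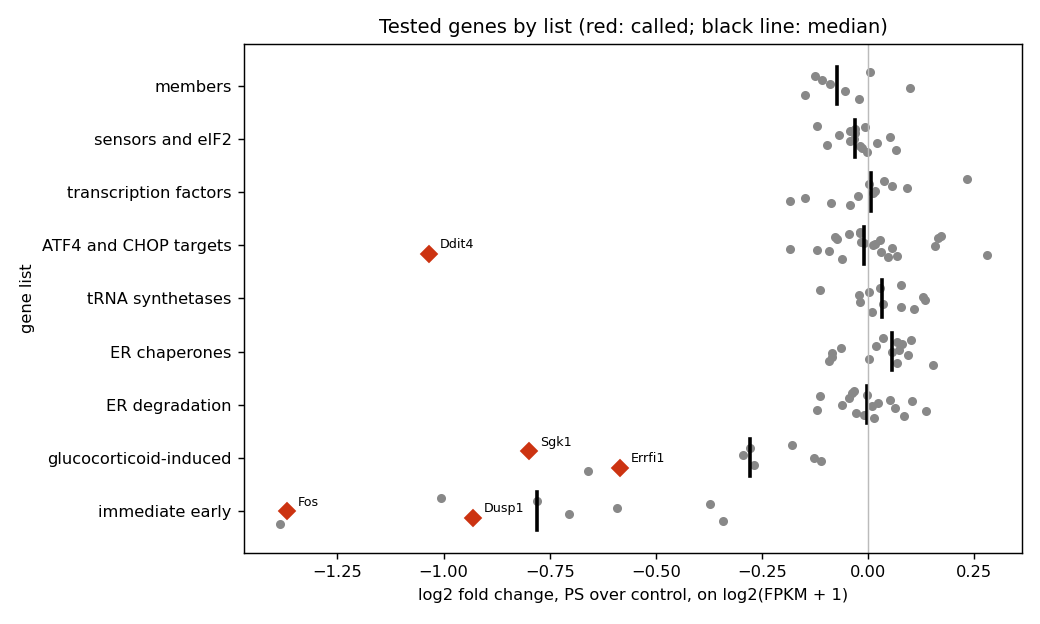
Log2 fold changes of PS over control (x axis) for every tested gene in the 10-gene set, in the 6 further stress lists and, for comparison, in the glucocorticoid-induced and immediate early lists (y axis); red diamonds are called genes and black lines are medians. The stress lists centre near 0, with medians from -0.07 to 0.06, and Ddit4 alone is called among them.

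Sensors and eIF2 genes differed little. Of 15 tested genes in the list, 12 were negative and 3 positive, and none was at an unadjusted p under 0.05. Without control replicate 3 or PS replicate 3, 9 were negative and 6 positive. All 15 lay within a 1.1-fold change on the FPKM + 1 scale, as did 10408 of the 12229 tested genes. Atf6, the third ER sensor, was at 11.5, 12.6 and 10.2 FPKM in control and 11.99, 11.3 and 10.8 in PS (log2 fold change -0.004, limma adjusted p = 0.997), and its sign turned in 4 alternatives to values between 0.001 and 0.06. Ppp1r15b, the constitutive partner of the eIF2 phosphatase, was at 15.2, 16.1 and 14.1 in control and 14.6, 13.2 and 13.7 in PS (log2 fold change -0.12, limma adjusted p = 0.903). Eif2ak2, the kinase that senses double-stranded RNA, and Eif2b4, a subunit of the exchange factor of eIF2, had log2 fold changes of -0.10 and -0.07 (limma adjusted p = 0.973 and 0.975). Eif2ak2 was at -0.04 without PS replicate 2. With a pseudocount of 0.1 it was at -0.15 and with limma-voom at -0.16, both outside a 1.1-fold change.

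Among 12 other transcription factors, 7 were positive and 5 negative, with a median of 0.01. With sample weights 4 were positive and 8 negative (median -0.06), as they were without control replicate 2 (median -0.02). Cebpb and Cebpg, which pair with ATF4 on C/EBP-ATF elements, had log2 fold changes of -0.18 and -0.15 (limma adjusted p = 0.856 and 0.886). Cebpg was at 9.35, 9.25 and 7.61 FPKM in control and 7.96, 7.59 and 7.73 in PS, so control replicate 3 lay with the PS libraries. Atf5, regulated in translation much like Atf4, had a log2 fold change of -0.09 (limma adjusted p = 0.975). Nupr1, a chromatin protein induced by stress, was at 9.90, 8.22 and 8.71 in control and 11.1, 12.2 and 8.90 in PS (log2 fold change 0.23, limma adjusted p = 0.844).

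The ER chaperones were mostly positive, but not without control replicate 3 or with sample weights. Of 15 tested, 11 were positive and 4 negative, and the median log2 fold change was 0.06. None was called, and 1 (Calr, limma unadjusted p = 0.0494) was at an unadjusted p under 0.05. No chaperone was at that level with no filter, after quantile normalization, without the variance trend or with robust moderation. The same held without control replicate 1, control replicate 3, PS replicate 1 or PS replicate 2. Calr, a calcium-binding chaperone of glycoproteins, was at 132.2, 131.0 and 118.5 FPKM in control and 144.5, 146.7 and 133.1 in PS (log2 fold change 0.15, limma adjusted p = 0.838). Hspa5, the master chaperone BiP that holds the sensors inactive, was at 104.0, 102.9 and 82.6 in control and 102.5, 103.5 and 93.5 in PS (log2 fold change 0.06, limma adjusted p = 0.983), and turned to -0.05 without control replicate 3 or with sample weights. Control replicate 3 was the lowest of the 6 libraries for 7 of the 15 chaperones (46.7%), where it was the lowest for 17.9% of all tested genes, and it was also the lowest for Xbp1. Without it, 7 chaperones were positive and 8 negative and the median was -0.02, and sample weights gave the same counts and a median of -0.02 with all 6 libraries kept. Hsp90b1 and Pdia6, chaperones of secreted proteins, had log2 fold changes of 0.09 and 0.10, and Dnajb9, a cochaperone of BiP under XBP1, had -0.09 (limma adjusted p from 0.921 to 0.946). Without control replicate 3, Pdia6 was at 0.04 and Dnajb9 at -0.05.

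Promoters were matched for 83 of the 104 genes in the further lists. The first form of the ER stress element was in those of 10 genes, namely Calr, Canx, Creld2, Derl3, Dnajc3, Ero1b, Hsp90b1, Hspa5, Pdia6 and Syvn1. Of the 9 of them that were tested, 5 had positive and 4 negative log2 fold changes, between -0.12 and 0.15, and none was called. The C/EBP-ATF element was in 16 of the 83, and with the 4 of the 10 genes above, 15 of these 20 were tested. Of those 15, 9 were positive and 6 negative, between -0.11 and 0.23, with none called.

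Genes of ER-associated degradation, the route by which misfolded proteins leave the ER for the proteasome, were balanced, with 8 of 17 tested positive and 9 negative, and none at an unadjusted p under 0.05. Edem2 and Edem3, lectins that mark glycoproteins for removal, had log2 fold changes of 0.14 and -0.12, and Ube2g2, a ubiquitin-conjugating enzyme, had -0.11 (limma adjusted p from 0.88 to 0.903). The 12 aminoacyl-tRNA synthetases, which ATF4 raises together with amino acid supply, gave 9 positive and 3 negative values (7 and 5 after quantile normalization) with a median of 0.03 and none called. Tars, Mars1 and Lars, the synthetases of threonine, methionine and leucine, had log2 fold changes of -0.11, 0.13 and 0.13 (limma adjusted p from 0.868 to 0.918). Control replicate 2 was the lowest library for 8 of the 12 (66.7%), against 30% of all tested genes, and it was the lowest for Asns as well. Without it, 6 synthetases were positive and 6 negative, with a median of -0.01. That library also had the lowest sum of 7 oligodendrocyte markers, 1071 FPKM, against 1425 and 1540 in the other controls and 1475 to 1664 in PS. The part of cell makeup in these levels was not tested.

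**Figure D4:**
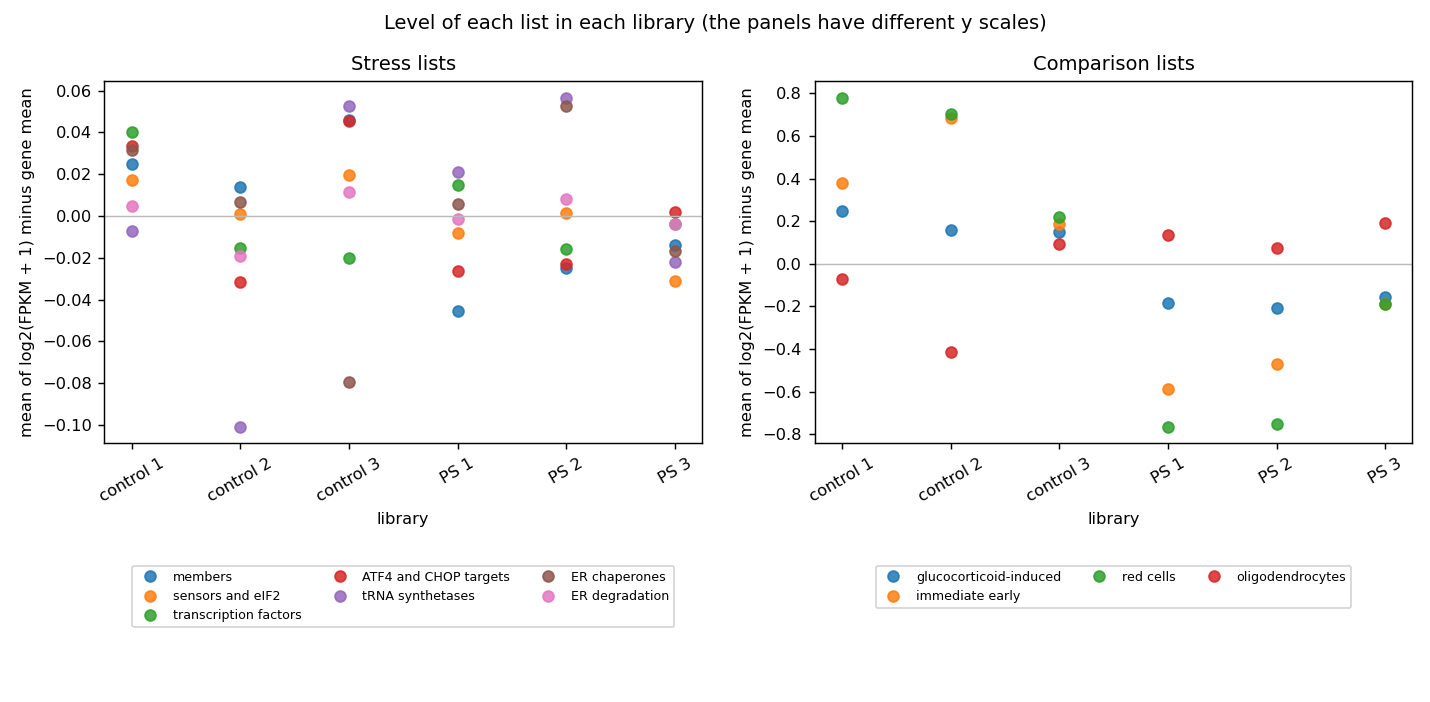
Mean over the tested genes of each list of log2(FPKM + 1) minus the gene's mean over 6 libraries (y axis) in each library (x axis), for the stress lists (left) and, on a wider y scale, for 4 comparison lists (right). The stress lists stay within -0.10 to 0.06, with the synthetases lowest in control replicate 2 and the ER chaperones lowest in control replicate 3, while the red-cell genes run from -0.77 to 0.78.

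Of the alternatives, sample weights, which give less weight to more variable libraries, gave the most members at a low p. With them 5.17% of all tested genes were called and 25.7% had an unadjusted p under 0.05. None of the 8 tested genes of the 10 was called, and 4 (Atf4, Ppp1r15a, Eif2ak3 and Herpud1) had an unadjusted p under 0.05. The lowest adjusted p were 0.0581 for Eif2ak3, with a log2 fold change of 0.20, and 0.0592 for Atf4, at -0.15. In the further lists, Cebpg (log2 fold change -0.23, adjusted p = 0.0413) and Lars (0.21, adjusted p = 0.0482) were called beside Ddit4.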

How the data were processed

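The authors deposited 1 table of FPKM values for each of 6 libraries, 3 control and 3 PS, grouped here by their labels. Per the labels' protocols, TRIzol was used for extraction and a VAHTS Universal V6 kit for the libraries. Per the submitters' processing notes, the tools were fastp, HISAT2, HTSeq and R 3.2.0 and the build was GRCm39. No order or settings are given, so strand use and the treatment of shared reads are not given in the sources used here.

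Genes with a mean of at least 1 FPKM were kept (12229, with 15149 removed). Values were taken as log2(FPKM + 1), which understates the change of low genes, and compared with limma 3.58.1 in R 4.3.3 (two-sided, with a variance trend and group as the only factor, leaving 4 residual degrees of freedom), with Benjamini-Hochberg adjustment over all tested genes. Members under the filter were compared by an exact permutation test. The pipeline was tested on simulated data that gave every gene the same relative spread and no library effect, unlike these data. That run checks the code and not the calls made here. The genes, lists and tests were chosen with earlier results of these data known.

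Named genes were the 10 members, the 3 tested genes with the lowest unadjusted p in each of 6 further lists, 9 genes chosen by name (Hspa5, Hsp90b1, Dnajb9, Atf6, Atf5, Ppp1r15b, Chac1, Sesn2 and Ddit4) and any called gene of the lists. Genes named for a promoter match, for a floor value or for an unadjusted p are said to be so.

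Whole reads were recovered from the FPKM steps. Totals were searched that make 13 mitochondrial genes of known length whole, and then a length for every gene, within 0.02 reads. Of 26556 genes above 0, 100% came out whole. For genes above 0 in only a few libraries some length nearly always fits, so that share does not check their reads. Replicates differed by more than sampling noise (chi-square per degree of freedom from 8.55 to 31.6), so none was treated as a copy.

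Libraries sharing a replicate number deviated together, weakly, from their groups (correlations 0.181, 0.185 and 0.161). The other pairs of a control and a PS library gave -0.217 to 0.025. Deviations cancel out within a group, so these correlations are not independent of each other. The pairing by number comes from the data, as the labels state none, and a replicate block was fitted as an alternative. The other alternatives changed the pseudocount, the filter, the scaling, the variance model or the call rule, added sample weights, or left out 1 library at a time. Limma-voom on recovered reads was added after seeing the data.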

Additional observations from a re-analysis of the deposited data

How the results depend on the processing

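No tested member was called under any of the 18 alternatives. The log2 fold changes of Atf4, Ppp1r15a, Ern1, Herpud1 and Eif2ak3 kept their sign in all fits run. Ddit3 turned to 0.023 without PS replicate 1 (with 1 library left out, -0.097 to 0.023). Xbp1 turned to -0.0093 with quantile normalization, -0.069 with sample weights, -0.081 without control replicate 3 and -0.012 without PS replicate 2 (-0.081 to 0.047), and Asns to 0.015 without control replicate 3 (-0.068 to 0.015). With each library left out in turn, the Atf3 difference ran from -0.040 to 0.078 and that of Trib3 from 0.002 to 0.184.

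The count of called genes in the 6 further lists, 1 with all libraries, was 0 with no filter, 3 with sample weights, and 0 to 1 with a library left out. The replicate block gave 0 called members and 1 called gene in the further lists, and it changed no call of the members or lists. At an unadjusted p under 0.05 it gave 6 of the further genes, against 3 without it. That count was 16 with sample weights, 10 without control replicate 3, 6 without control replicate 2 and 1 without PS replicate 2.

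Signs of values near 0 also turned for Hspa5 (-0.048 with sample weights, -0.052 without control replicate 3, up to 0.112 with 1 library left out), Atf6 (0.00067 with quantile normalization, and 0.0038, 0.064 and 0.030 without control replicates 1 and 2 and PS replicate 3, down to -0.079), Chac1 (-0.0026 and -0.059 without control replicates 1 and 2, up to 0.262) and Sesn2 (0.0064 with quantile normalization, 0.025 with sample weights, and 0.039, 0.00041 and 0.0012 without control replicate 2 and PS replicates 1 and 3, down to -0.038). The cause was not tested. Leaving out 1 library moved the log2 fold change by over 1.5 times for 7 of the 8 tested members (all but Atf4) and for 18 of the 24 other named genes. With 3 libraries per group, the intervals of the tested members reach from -0.29 to 0.26 on log2(FPKM + 1), down to -0.46 with a pseudocount of 0.1 and -0.44 with limma-voom, both for Ern1, and Atf3 and Trib3, with 6 to 45 reads per library, allow no narrower statement than their values.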
